A study of Mus musculus with 2 samples.

Results

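The interferon response genes described here are 32 mouse genes picked by symbol among the 32246 gene symbols of 2 droplet single-cell RNA libraries. The 32 genes were chosen with earlier results of these data known. They fall into 5 groups by role: 14 effectors of the type I response, 4 transcription factors, 3 IFITM genes, 7 GTPases known for their induction by interferon gamma, and 4 genes of class I antigen presentation. The libraries were made from CD45-negative cells of the stromal vascular fraction of subcutaneous white fat, which were released with collagenase and sorted by flow cytometry. One library was labelled WT and the other Paqr4 transgenic. The series text states that cells of 3 mice were pooled, without saying whether this holds for each genotype. The promoter of the transgene, the strain and the age of the mice were not given in the sources used here.

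Interferons are secreted signals that make cells resistant to infection. Type I interferons act through the kinases JAK1 and TYK2 on a complex that holds STAT2 and IRF9 and binds interferon-stimulated response elements (ISRE) in the promoters of effector genes. Interferon gamma acts through JAK1 and JAK2, with gamma-activated sites (GAS) in the promoters of the GTPases and of IRF1, and both signals raise class I antigen presentation. In fat, progenitors and endothelial cells carry the receptors for both kinds of interferon.

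The WT library held 44145257 unique molecules (UMIs) and the transgenic library 43084906, of which 28.2% and 29.1% were haemoglobin. After filtering, 1328 WT cells and 1521 transgenic cells remained, with medians of 21612.5 and 18711 UMIs per cell, and the libraries shared 0 cell barcodes. Progenitors, named from 8 markers such as Pdgfra, Dcn and Col1a1, made up 1077 WT cells and 1287 transgenic cells, and endothelial cells 101 and 85. Markers of immune cells were at or near 0 in both classes: the 7 macrophage markers summed to 3.10 and 2.53 UPM (UMIs per 1000000 UMIs of the class) in WT and transgenic progenitors and to 6.87 and 9.10 in endothelial cells, and the 5 markers of T or NK cells to between 0 and 0.119. Xist, which is transcribed from the inactive X chromosome of females, stood at 958.8 UPM in WT progenitors and 0.158 in transgenic progenitors, so that genotype and sex cannot be told apart. Paqr4 itself stood at 7.77 and 9.53 UPM in progenitors. A count at the 3′ end of the native transcript need not read a transgene, and these values check neither label. With 1 library per genotype there was no test between genotypes, and every interval below is a 95% exact interval that covers counting error only.

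RefSeq promoter windows on build GRCm38.p6, reaching from 250 bases before to 50 bases after the transcription start, were found for 28 of the 32 genes. The ISRE was searched as GAAA, any 2 bases and GAAA, and the GAS as TTCNNNGAA, on both strands, with overlapping matches counted. An ISRE stood in a window of 18 of the 28 genes and a GAS in 9, against 3.99% and 9.55% of all 27025 genes with windows. Of all 32851 windows of the same 300 bases, 3.44% held an ISRE and 8.30% a GAS. By group, the ISRE was found for 8 of 11 type I effectors, 6 of 6 GTPases, 2 of 3 IFITM genes, 1 of 4 transcription factors and 1 of 4 class I genes. A GAS was found for 3 of 11 type I effectors and 3 of 6 GTPases. It was found for 1 of 3 IFITM genes and for 1 of 4 genes in each remaining group. A match describes letters and is not a measured binding site. The 250 bases before the start are printed for members on which the results below turn: Ifit1, Isg15 and Bst2 for the type I effectors, Gbp2 and Gbp5 for the GTPases and B2m for class I. Capitals mark the matched letters.
Ifit1 promoter, chr19:34640639-34640888, plus strand: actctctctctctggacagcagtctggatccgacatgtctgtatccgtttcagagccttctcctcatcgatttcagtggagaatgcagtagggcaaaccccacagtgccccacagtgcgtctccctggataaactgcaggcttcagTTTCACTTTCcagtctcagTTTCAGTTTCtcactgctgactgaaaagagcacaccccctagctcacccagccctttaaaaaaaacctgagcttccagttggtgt
Isg15 promoter, chr4:156200819-156201068, minus strand: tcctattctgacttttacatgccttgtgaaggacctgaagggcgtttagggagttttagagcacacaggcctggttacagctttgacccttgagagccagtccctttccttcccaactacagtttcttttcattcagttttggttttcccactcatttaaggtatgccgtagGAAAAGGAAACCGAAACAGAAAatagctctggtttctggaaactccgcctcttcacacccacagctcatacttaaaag
Bst2 promoter, chr8:71537473-71537722, minus strand: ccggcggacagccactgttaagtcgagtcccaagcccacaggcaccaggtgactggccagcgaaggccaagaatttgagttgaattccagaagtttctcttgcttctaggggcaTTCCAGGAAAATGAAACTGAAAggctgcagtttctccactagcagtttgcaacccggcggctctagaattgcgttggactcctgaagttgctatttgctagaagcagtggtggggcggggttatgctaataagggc
Gbp2 promoter, chr3:142620413-142620662, plus strand: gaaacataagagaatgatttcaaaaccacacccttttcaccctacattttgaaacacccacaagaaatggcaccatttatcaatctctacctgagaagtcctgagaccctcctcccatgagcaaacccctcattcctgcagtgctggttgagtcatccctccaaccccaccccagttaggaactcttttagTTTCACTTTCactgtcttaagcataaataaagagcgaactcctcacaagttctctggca
Gbp5 promoter, chr3:142496684-142496933, plus strand: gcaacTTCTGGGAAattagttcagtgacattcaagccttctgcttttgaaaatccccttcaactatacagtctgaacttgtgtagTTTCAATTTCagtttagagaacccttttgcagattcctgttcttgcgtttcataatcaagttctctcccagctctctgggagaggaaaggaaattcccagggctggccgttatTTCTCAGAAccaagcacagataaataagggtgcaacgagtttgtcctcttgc
B2m promoter, chr2:122147437-122147686, plus strand: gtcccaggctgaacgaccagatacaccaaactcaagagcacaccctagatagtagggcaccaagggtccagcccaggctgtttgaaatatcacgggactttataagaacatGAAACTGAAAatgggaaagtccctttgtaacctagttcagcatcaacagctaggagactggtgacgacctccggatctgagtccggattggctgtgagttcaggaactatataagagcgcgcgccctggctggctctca
The Ifit1 window carried 2 separate ISRE matches, 104 and 85 bases before the start. In Isg15, 3 ISRE matches overlapped in 1 run, with their first bases 78, 72 and 66 bases before the start. In Bst2 a GAS ran into 2 overlapping ISRE matches. Gbp5 had 1 ISRE flanked by 2 GAS matches, whereas Gbp2 and B2m had 1 ISRE each.

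Levels are given in UPM, a scale that counts 3′ tags and does not depend on transcript length. In progenitors most members were lower in the transgenic library than in the WT library, by small amounts. Of the 29 members at 10 UPM or more in a library, 24 were lower in the transgenic library. The median log2 ratio of transgenic over WT was -0.21, against 0.09 over all 8716 genes at this floor, of which 33.3% were lower. By a threshold of 1.5-fold, 5 members were lower (Ifit1, Ifitm1, Gbp5, Irgm1 and B2m) and 1 was higher (Igtp), where 1.81% of all genes were lower and 2.74% higher by this rule. Ifit3b, Usp18 and Oas1a stayed under the floor in both libraries.

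Among the type I effectors, Ifit1, which binds RNA lacking the host cap structure, stood at 63.4 UPM in WT progenitors (interval 60.3 to 66.6) and 37.4 in transgenic progenitors (35.1 to 39.9). The log2 ratio was -0.76 (-0.88 to -0.64). Ifit2 and Ifit3, of the same family, stood at 24.3 and 27.0 UPM and at 16.1 and 15.1 UPM, with ratios of 0.15 and -0.10 whose intervals included 0. The ubiquitin-like modifier Isg15 stood at 30.9 UPM in WT and 34.1 in transgenic cells. Usp18, the protease that removes it, stood at 9.62 and 7.35. Of these genes Ifit1 was set apart between the libraries, while Ifit2, Ifit3 and Isg15 had ratios near 0.

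Rsad2, also called viperin, which makes a chain-terminating nucleotide, stood at 8.37 UPM in WT and 11.9 in transgenic progenitors, and 5 cells held 47.1% and 66.0% of its UMIs. The oligoadenylate synthase family members Oasl2 and Oas1a stood at 41.3 and 31.8 UPM and at 9.30 and 8.46 UPM. In Oas1a 56.1% of the 50-base words of the last 500 transcript bases also occurred in Oas1g, so that its count is uncertain. Xaf1, linked to cell death, stood at 30.3 and 25.7 UPM, the nucleic acid sensor Zbp1 at 11.8 and 10.9 and the helicase Ddx60 at 35.2 and 33.8. Ifi27l2a was detected in most progenitors and stood at 547 and 385 UPM (log2 -0.51, -0.55 to -0.47). Bst2, or tetherin, which holds budding virus at the membrane, stood at 88.9 and 74.5 UPM. The median ratio of the 11 type I effectors at the floor was -0.11, with 3 above 0 and 8 below.

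The transcription factors Stat2 and Irf9, partners in the type I complex, stood at 70.2 and 73.8 UPM and at 33.5 and 30.3 UPM. Irf1, a direct target of interferon gamma signalling, stood at 402 UPM in WT and 285 in transgenic progenitors (log2 -0.49, -0.54 to -0.45). Irf7, which amplifies type I production, stood at 17.9 and 15.5 UPM. The level in empty droplets was 27.7 and 16.8 UPM for Irf7, at or above that in progenitors. None of the 4 factors passed 1.5-fold.

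The IFITM proteins hinder virus entry at membranes. Ifitm2 stood at 514 and 489.6 UPM and Ifitm3 at 1008 and 970.3, near equality between the libraries. Ifitm1 stood at 31.8 UPM in WT and 14.4 in transgenic progenitors (log2 -1.15, -1.33 to -0.97). The droplets with fewer than 100 UMIs held 45.5 and 20.8 UPM of it, above the progenitors in both libraries and lower in the transgenic library as well. The part of free RNA in this difference was not tested. Ifitm1 thus departed from its paralogues, and its level also varied widely over the progenitor clusters described below, from 3.36 UPM in Dpp4-like to 347 in cluster 7 of the WT library and from 0.683 to 120.3 in the same clusters of the transgenic library. Parts of the 3′ ends are shared with other annotated genes for Ifitm2 (41.9% of words), Ifitm3 (14%) and Ifitm1 (11.8%).

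Guanylate-binding proteins and immunity-related GTPases attack the vacuoles of intracellular microbes. Gbp5 stood at 86.4 UPM in WT and 48.1 in transgenic progenitors (log2 -0.85, -0.95 to -0.74), and Gbp2 at 95.2 and 76.0. Gbp3 and Gbp7 stood at 23.1 and 20.5 UPM and at 59.2 and 53.7 UPM. Of the immunity-related GTPases, Irgm1, a regulator of the others, stood at 44.5 and 27.7 UPM (-0.69, -0.82 to -0.55) and Iigp1, an effector, at 339 and 264. Igtp was the single member higher by 1.5-fold, at 11.2 UPM in WT and 17.3 in transgenic progenitors (0.63, 0.41 to 0.85). Its gene overlaps the annotated span of Irgm2, so its count is uncertain. In droplets with fewer than 100 UMIs Igtp stood at 19.2 UPM in WT and 13.3 in the transgenic library. Without the 5 cells of each library with most Igtp UMIs the ratio was 0.55, under the threshold. The GTPases at the floor had a median ratio of -0.32, with 6 of 7 below 0.

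In class I antigen presentation, B2m, the light chain of the complex, stood at 1106 UPM in WT (1093 to 1119) and 737 in transgenic progenitors (727 to 748), a ratio of -0.59 that lies at the 1.5-fold threshold. The heavy chains H2-K1 and H2-D1 stood at 397 and 345 UPM and at 593 and 511 UPM. Psmb8, a subunit of the immunoproteasome, stood at 48.7 and 40.9 UPM. The group's median ratio was -0.24, and all 4 genes were lower in the transgenic library. They were lower in its droplets with fewer than 100 UMIs as well, at 837 and 636 UPM for B2m, 457 and 416 for H2-K1 and 629 and 511 for H2-D1. The part of free RNA was not tested.

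The clusters described below made up different shares of the progenitors in each library. With equal weight for each cluster, Ifitm1 alone remained lower by 1.5-fold (-1.12), and Ifit1 stood at -0.38, Gbp5 at -0.58, Irgm1 at -0.58 and B2m at -0.54.

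**Figure D1:**
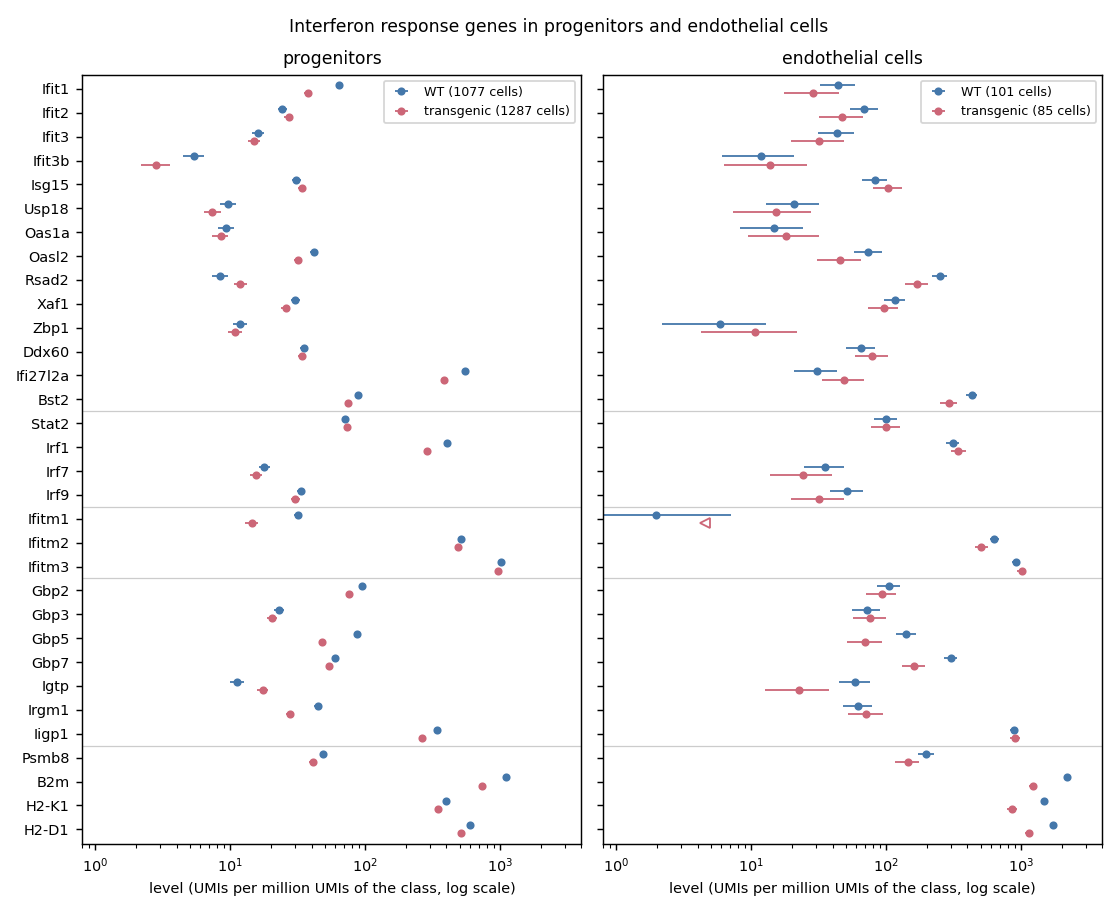
Level of each of the 32 genes in UPM (log scale) in progenitors (left) and endothelial cells (right), for WT (blue) and transgenic (red), with bars for 95% exact Poisson intervals. The open triangle marks the limit that a count of 0 allows for Ifitm1 in transgenic endothelial cells. Rsad2 and the class I genes sit further right in endothelial cells, and Ifi27l2a and Ifitm1 further left.

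**Figure D2:**
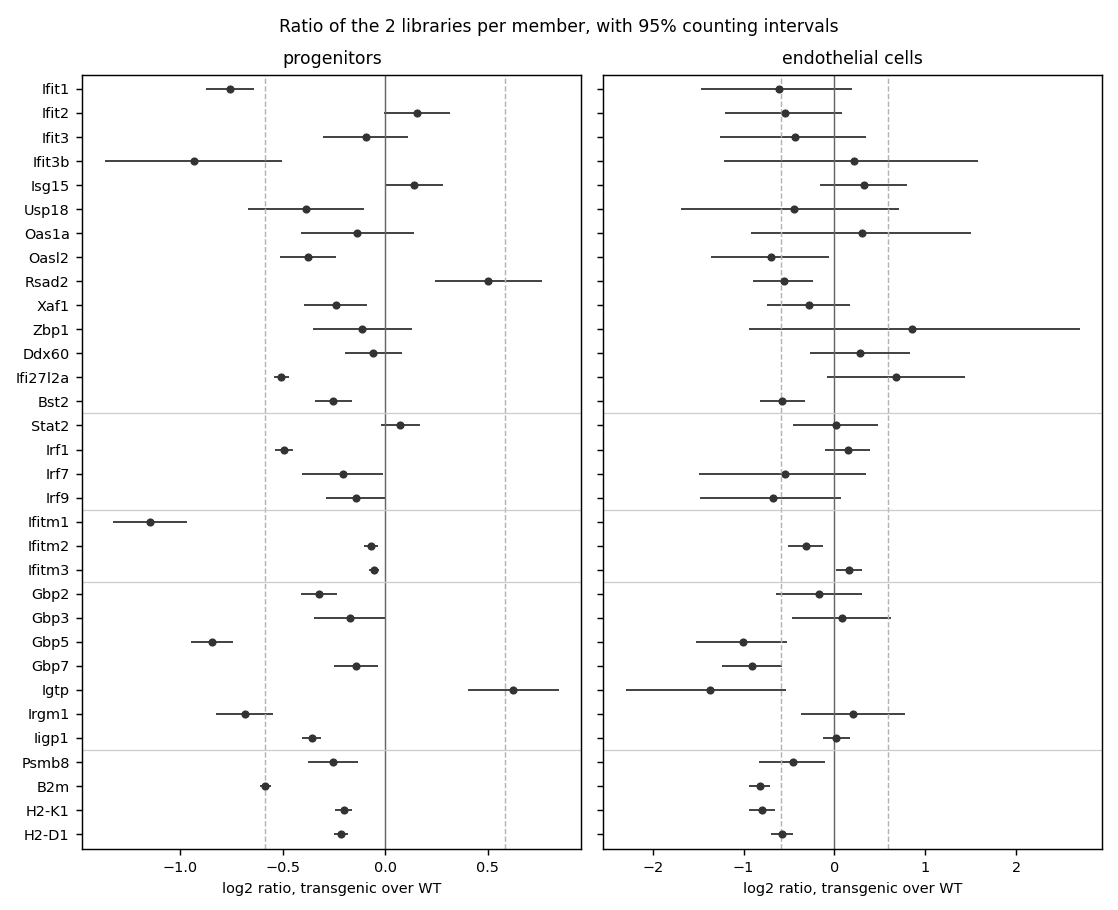
Log2 ratio of transgenic over WT for each gene in progenitors (left) and endothelial cells (right), with 95% exact counting intervals; the panels differ in scale, the dashed lines mark 1.5-fold, and Ifitm1 has no value in endothelial cells. In progenitors 24 of the 29 genes at 10 UPM or more lie left of 0, and in endothelial cells all 4 class I genes do.

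Compared within each library, endothelial cells carried higher levels of many members than progenitors. The largest difference was in Rsad2, at 8.37 UPM in WT progenitors and 248 in WT endothelial cells, and at 11.9 and 168 in the transgenic library, with log2 ratios of 4.89 (4.62 to 5.16) and 3.83 (3.5 to 4.15). By a threshold of 2-fold, 15 of 32 members were higher and 2 lower in endothelial cells of the WT library, where 24.9% of all genes were higher and 16.8% lower. In the transgenic library 16 members were higher and 2 lower, where 23.4% of all genes were higher and 18.5% lower. The median ratio of all members was 0.98 in WT and 0.92 in the transgenic library, against 0.35 and 0.23 over all genes.

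Among the type I effectors, Bst2 stood at 88.9 UPM in WT progenitors and 431 in WT endothelial cells, and at 74.5 and 289.7 in the transgenic library. Xaf1 stood at 116 UPM in WT and 95.5 in transgenic endothelial cells, and Isg15 at 82.4 and 103, each more than 2-fold above progenitors in both libraries. Ifit1 did not share this pattern, with 44.1 and 28.8 UPM in endothelial cells and log2 ratios to progenitors of -0.52 and -0.38. Ifi27l2a ran the opposite way, at 547 UPM in WT progenitors and 30.4 in WT endothelial cells, and at 385 and 48.5 in the transgenic library. Ifitm1 was detected in 1.98% of WT endothelial cells and 0% of 85 transgenic endothelial cells, against 21.0% and 11.8% of progenitors. Taking 3 UMIs as the limit that a count of 0 allows, it was under 4.55 UPM in the transgenic endothelial cells, at least 3.15-fold lower than in progenitors by that limit. These classes differ in depth, with medians of 9541 and 7645 UMIs in endothelial cells and 22908 and 19557 in progenitors.

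Free RNA was measured in droplets with fewer than 100 UMIs. Ifi27l2a stood at 374 UPM in the empty droplets of the WT library, yet 5.94% of WT endothelial cells had a UMI of it and 96.8% of its UMIs lay in 5 cells. For Rsad2, the empty droplets held 23 and 19.3 UPM, more than the progenitors and far less than the endothelial cells. Isg15 stood at 33.7 and 29.2 UPM in the empty droplets, near its level in progenitors, and Ifit1 at 29.6 and 16.3, below it.

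Most GTPases and all class I genes were higher in endothelial cells. Gbp7 stood at 301 UPM in WT and 161 in transgenic endothelial cells, 2.35 and 1.58 on the log2 scale above progenitors. Iigp1 stood at 889.8 and 902 UPM in endothelial cells (1.39 and 1.77 above progenitors) and Gbp3 at 71.6 and 75.8 (1.63 and 1.89). All 7 GTPases had positive ratios in both libraries, with medians of 1.39 and 1.36, and 4 of 7 passed 2-fold in each. The intervals included 0 for Gbp2 in WT (0.13, -0.17 to 0.41) and in the transgenic library (0.28, -0.11 to 0.65). For Igtp the interval included 0 in the transgenic library (0.39, -0.46 to 1.13). For class I, Psmb8 was 2.02 and 1.82 higher, H2-K1 1.91 and 1.31, and H2-D1 1.53 and 1.17. B2m differed by 0.97 and 0.73, under 2-fold. The transcription factors differed little, with medians of 0.55 and 0.35 and none past 2-fold.

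Between the genotypes, class I genes were lower in transgenic endothelial cells. B2m stood at 2173 UPM in WT (2084 to 2266) and 1227 in transgenic endothelial cells (1144 to 1314), H2-K1 at 1487 and 855, H2-D1 at 1711 and 1148 and Psmb8 at 198 and 144. The median ratio of the 4 genes was -0.69, against -0.02 over all 9466 genes at the floor. Gbp5 stood at 140.3 and 69.8 UPM (log2 -1.01, -1.52 to -0.52), Gbp7 at 301 and 161 (-0.91, -1.24 to -0.58) and Igtp at 58.9 and 22.7 (-1.37, -2.29 to -0.54). The transcription factor Irf9 stood at 51.0 and 31.8 UPM, with an interval that included 0. Iigp1 and Irgm1 did not share the difference, at 889.8 and 902 UPM and 61.8 and 71.3 UPM. In all, 8 of 31 members at the floor were lower by 1.5-fold and 2 were higher. With 17.9% of all genes lower and 16.6% higher by this rule in these few cells, the count of 2 is under the background share and the count of 8 somewhat above it. A mean over cells gave 16 lower and 1 higher, against 20.1% and 18.5% of all genes. Leaving out the 5 cells with most UMIs of each gene also gave 16 lower and 1 higher, against 27.3% and 12.5%.

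Among type I effectors, Rsad2 stood at 248 and 168 UPM and Bst2 at 431 and 289.7 in WT and transgenic endothelial cells. Oasl2 stood at 73.6 and 45.5 UPM (log2 -0.69, -1.36 to -0.06). A difference was not detectable at this depth for Ifit1, Ifit2, Ifit3, Ifit3b, Isg15, Usp18, Oas1a, Xaf1, Zbp1, Ddx60 and Ifi27l2a, whose intervals included 0. These include the 2 members counted as higher, Zbp1 and Ifi27l2a. Leaving out the lymphatic cells, 6 in each library, gave a class I median of -0.65 in blood endothelial cells, where 9 of 31 members were lower by 1.5-fold and 2 higher, against 19.4% and 15.7% of all genes. In these cells the intervals of Ifi27l2a (log2 1.06, 0.14 to 2.00) and Ifit2 (-0.67, -1.37 to -0.0059) did not include 0. In endothelial cells the markers of red cells, a sign of adhering haemoglobin, summed to 7651 and 7609 UPM, nearly alike in the libraries, and their part in the differences was not tested.

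The progenitors split into 6 clusters, found without the 32 genes and without the other interferon genes listed below. They were named from marker lists: F3-like (259 WT and 392 transgenic cells), Icam1-like (cluster 1 with 194 and 363 cells, and cluster 7 with 42 and 17), Il6-like (270 and 191), Dpp4-like (237 and 190) and Itgbl1-like (75 and 134). F3 and Icam1 themselves did not set apart the clusters named after their lists. The names rest on the other markers, such as Fmo2 and Meox2 for the F3-like cells and Pparg, Fabp4 and Lpl for the Icam1-like cells of cluster 1. Fabp4 was shared with the Il6-like cells, at 62.1 and 88.2 UPM in cluster 1 and 65.1 and 74.5 in Il6-like cells. Mgp, also on the F3-like list, stood at 1114 and 1576 UPM in F3-like cells and higher in Itgbl1-like cells, at 1961 and 2131. Cluster 7 had much Lpl (2538 and 2133 UPM) but hardly any Fabp4 (2.63 and 0 UPM). Dpp4-like cells, known as an interstitial progenitor, carried Dpp4 and Pi16, and Il6-like cells carried Il6, Procr and Thbd. Has2, also on the Il6-like list, was shared by both, at 299 and 182 UPM in WT and transgenic Il6-like cells. In Dpp4-like cells it stood at 293 and 258 UPM.

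Ifit1 and the GTPases Gbp2, Gbp5, Irgm1 and Iigp1 were higher in the Il6-like cluster than in the other progenitors of both libraries. Ifit1 stood there at 139 UPM in WT and 96.4 in transgenic cells, against 35.0 and 26.0 in the other progenitors. It was among the 10 genes that set this cluster apart. Ifit1 itself had been left out of the clustering. Genes outside the lists that vary with members across cells, such as Herc6 and Trim30a, had not been removed. Gbp5 stood at 191 and 115 UPM, against 47.2 and 35.0, Gbp2 at 188 and 134, against 60.5 and 64.8, and Iigp1 at 709.6 and 519, against 201 and 215. In the WT library 15 members were higher by 1.5-fold than in the other progenitors and 1 lower, where 6.01% of all genes were higher and 18.3% lower. In the transgenic library 8 were higher and 3 lower, where 5.45% were higher and 22.5% lower. The 3 were Rsad2 (log2 -1.29), Ddx60 (-0.74) and Ifitm1 (-0.82). The 7 GTPases summed to 1305 and 927 UPM in the Il6-like cluster, 1.65 and 1.12 above the other progenitors on the log2 scale. The type I core, a sum of the 12 effectors without Ifi27l2a and Bst2, stood at 439.7 and 335 UPM there, 0.95 and 0.55 above the others, with Ifit1 the core gene that differed most in the transgenic library. Class I genes did not follow, with medians of 0.06 and -0.02.

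The negative regulators Socs1 and Socs3 and the chemokine genes Cxcl9 and Cxcl10 were higher in the same cluster. Socs3 stood at 1418 UPM in WT and 1293 in transgenic Il6-like cells, against 700.4 and 599 in the other progenitors. Cxcl10, a lymphocyte attractant induced by interferons, stood at 474 and 333, against 109.9 and 119. Jak2 stood at 482 and 404, against 137 and 120.3, whereas Jak1 was 0.49 and 0.47 higher on the log2 scale. In the WT library 24 of 57 listed pathway genes at the floor were higher by 1.5-fold and 2 lower, against 6.01% and 18.3% of all genes. In the transgenic library 15 of 55 were higher and 3 lower, against 5.45% and 22.5%. Macrophage markers summed to 1.62 and 1.46 UPM in this cluster.

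**Figure D3:**
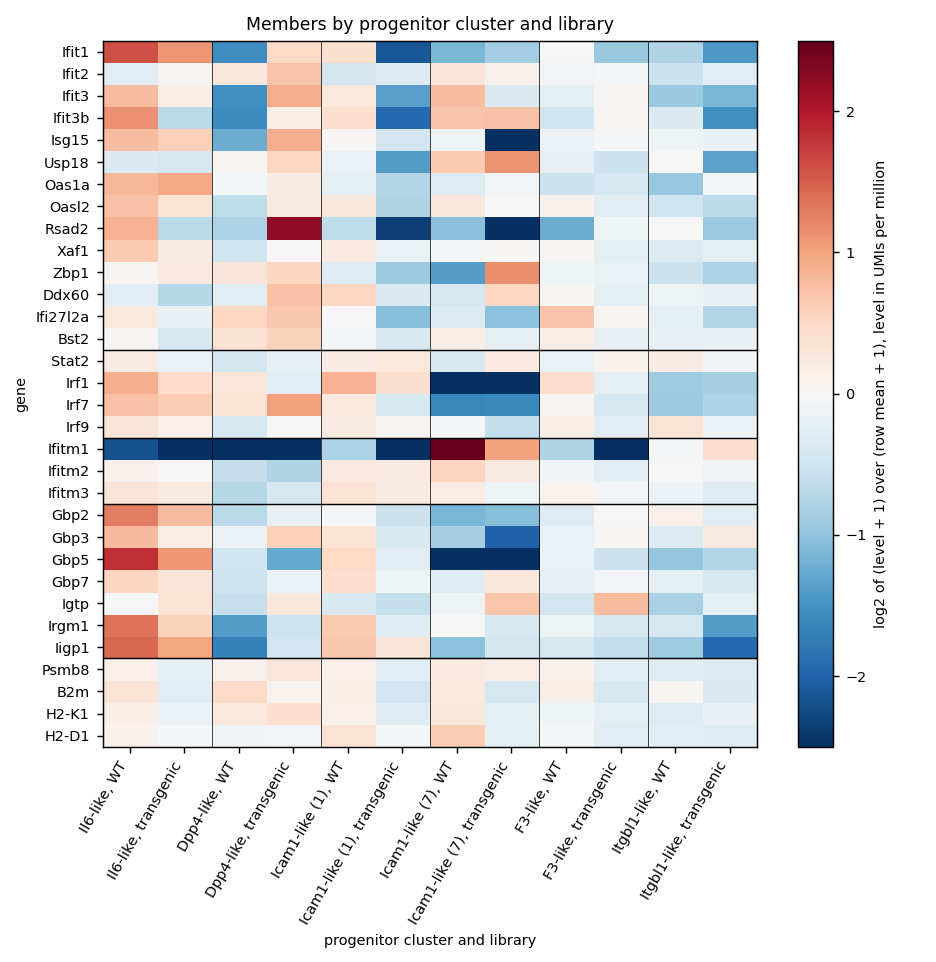
Level of each gene in the 6 progenitor clusters of each library, as log2 of the level plus 1 UPM over the row mean plus 1 UPM; red is above and blue below the row mean, and the horizontal lines separate the 5 role groups. Ifit1, Gbp2, Gbp5, Irgm1 and Iigp1 are red in the Il6-like columns of both libraries, and Rsad2 is dark red in the transgenic Dpp4-like column.

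In the type I core and the GTPases the Dpp4-like cluster ran against most other progenitor clusters in the comparison of the libraries. In WT it held the lowest type I core of the progenitor clusters, 175 UPM (165 to 186), and in the transgenic library the highest, 419 UPM (400.5 to 439), a log2 ratio of 1.26. Ifit1 stood at 14.5 UPM in WT and 63.3 in transgenic Dpp4-like cells, Isg15 at 12.1 and 57.2, Ifit3 at 4.80 and 30.3, and Rsad2 at 4.96 and 46.0. All 13 type I effectors at the floor were higher in the transgenic library, with a median of 0.54. Of all members, 11 of 30 were higher by 1.5-fold and 1 lower, where 7.03% of all genes were higher and 4.25% lower. The GTPases summed to 243 and 395 UPM (log2 0.70), with Iigp1 at 80.4 and 186 and Gbp5 the other way at 37.6 and 21.4. Ifi27l2a and Bst2 differed less, at 613 and 676 UPM and 106 and 119. Class I genes summed to 2284 and 2056 UPM and the transcription factors to 435 and 352, lower in the transgenic library. Both groups were also lower in the transgenic library over all progenitors. Set against the other progenitors of its own library, the WT Dpp4-like cluster had 0 of 29 members higher and 14 lower by 1.5-fold, against 7.38% and 13.6% of all genes. The transgenic one had 13 of 31 higher and 4 lower, against 7.69% and 13.7%.

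Much of this difference lay in few cells. Of the Rsad2 UMIs of transgenic Dpp4-like cells, 90.6% lay in 5 cells, and of the Ifit3 UMIs 81.2%. Without the 5 cells of each cluster and library with the highest sum, the core ratio was 0.46 (0.33 to 0.59). The transgenic Dpp4-like core was then 214 UPM, below the 219 of transgenic Il6-like cells, and no longer the highest. The ratio was 0.53 with interferon genes kept in the clustering. Usp18 was detected in 17.7% of WT and 17.9% of transgenic Dpp4-like cells and differed less, at 11.0 and 15.5 UPM. In the other clusters but the small cluster 7 (244 and 253 UPM) the core was lower in the transgenic library. It stood at 294 UPM in WT and 145 in transgenic cells of cluster 1, at 439.7 and 335 in Il6-like cells, and at 245 and 214 in F3-like cells.

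Within cluster 1, of Icam1-like cells, 11 of 27 members were lower by 1.5-fold in the transgenic library and 0 higher, against 3.78% and 4.82% of all genes. Ifit1 stood there at 59.1 and 9.44 UPM (log2 -2.65), Ifitm1 at 34.8 and 8.75 and Ifi27l2a at 426 and 202. In Il6-like cells 7 of 31 were lower and 0 higher, against 4.44% and 4.74%, with Rsad2 at 17.6 and 5.35 UPM and Gbp5 at 191 and 115. In F3-like cells 4 of 28 were lower and 1 higher, against 3.06% and 4.36%. The 4 were Ifit1, Ifi27l2a, Irf1 and Ifitm1, and the 1 was Igtp, at 10.2 and 25.9 UPM. Itgbl1-like cells had 4 of 26 lower and 2 higher, against 8.76% and 11%. Cluster 7, with 17 transgenic cells, had 8 of 27 lower and 5 higher, against 18.7% and 23.8%. Without the Dpp4-like cluster, 9 members were lower by 1.5-fold in progenitors and 0 higher, against 1.92% and 2.58% of all genes, and the median ratio of the type I effectors was -0.42.

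Over single cells, much of the type I core and of the GTPases lay in few cells. In progenitors thinned to 5000 UMIs (1052 WT and 1245 transgenic cells, with 25 and 42 shallower cells left out) the core averaged 1.43 and 1.22 UMIs per cell. The 5% of cells with most held 44.1% and 45.4% of its UMIs. With Ifi27l2a and Bst2, which most cells carried, the share for all 14 effectors was 23.2% and 28.3%. For the GTPases the top 5% of cells held 37.3% and 45.9%. The class I genes, with a higher mean count, had a UMI in 99.8% and 99.0% of cells, and the top 5% held 13.2% and 16.7%, a share that falls as the mean count rises.

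Single members differed widely in spread. The ratio of variance to mean had a median of 1.13 and 1.12 over single genes, of which 8.38% and 8.23% were above 2. Ifit1 stood at 7.93 in WT and 8.10 in transgenic progenitors and Iigp1 at 12.9 and 15.4. B2m stood at 2.29 and 2.85 and H2-D1 at 2.03 and 2.31, also above most genes, whereas Usp18 (1.30 and 1.06) and Ifit2 (1.26 and 1.18) lay near the median. Ifit1 had a UMI in 10.1% of WT and 6.67% of transgenic progenitors after thinning (19.6% and 12.6% at full depth), and the top 5% of cells held 83.6% and 90.4% of its UMIs. Iigp1 had a UMI in 34.9% and 26.3% of cells and reached 67 and 69 UMIs in a single thinned cell. Xaf1 and Irf9 were also near the median, with ratios of variance to mean of 1.14 and 1.38 and of 1.13 and 1.18. B2m had a UMI in 98.4% and 92.2% of cells and Ifitm3 in 94.2% and 95.7%.

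A few cells held much of the core. At least 10 core UMIs were found in 25 of 1052 WT cells and 20 of 1245 transgenic cells, and these held 30.7% and 28.3% of all core UMIs. In WT 12 of the 25 lay in the Il6-like cluster and 1 in the Dpp4-like cluster, whereas in the transgenic library 5 of the 20 lay in the Il6-like cluster and 8 in the Dpp4-like cluster. Ranked by core UMIs after thinning, the highest transgenic cell, a Dpp4-like cell with 27851 UMIs, held 480 core UMIs at full depth, 1.72% of its total, with 136 of Ddx60, 88 of Ifit1, 84 of Rsad2 and 57 of Isg15. The highest WT cell, in cluster 1, held 136 core UMIs of 15634, or 0.870%, and detected all 12 core genes. The third highest WT cell differed from these, with 73 of its 89 core UMIs from Ifit1 and none from Isg15 or Rsad2. Ifit1 also made up most core UMIs of the WT cell ranked 5 (68 of 108) and the transgenic cell ranked 2 (155 of 246).

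**Figure D4:**
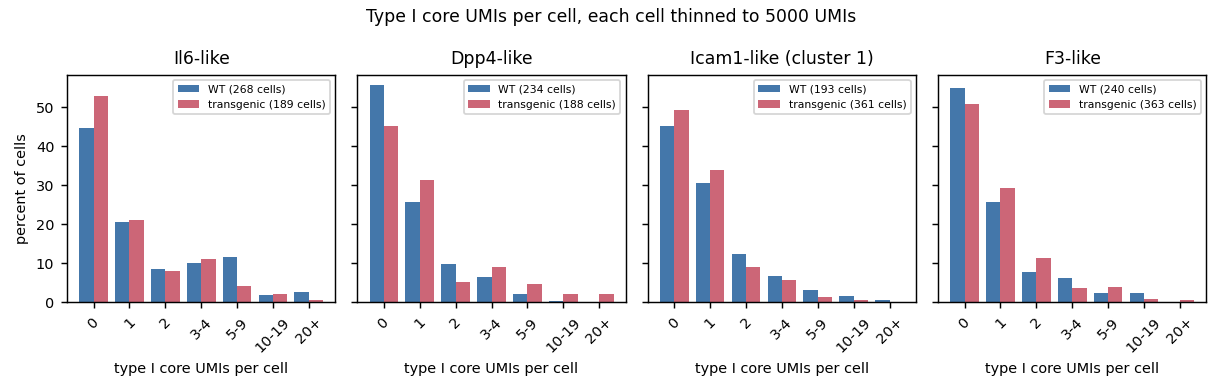
Percent of cells (vertical axis) by number of type I core UMIs per cell (horizontal axis, binned) after thinning each cell to 5000 UMIs, in 4 progenitor clusters, for WT (blue) and transgenic (red). Most cells hold 0 or 1 UMI, the WT bars of the Il6-like cells reach highest at 5 to 9 UMIs, and among Dpp4-like cells only transgenic cells reach 20 or more.

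Cells high in the core were often high in the GTPases. Of the 25 WT cells with 10 or more core UMIs, 13 also had 10 or more GTPase UMIs, and of the 20 transgenic cells 12, against 9.41% and 5.94% of all progenitors. Conversely, 13.1% and 16.2% of the cells high in GTPases were high in the core. Across progenitors the Pearson correlation of the 2 sums was 0.43 in WT (n = 1052 cells) and 0.33 in the transgenic library (n = 1245 cells). The core correlated less with class I (0.14 and 0.19), and near 0 with total UMIs (0.03 and 0.06), mitochondrial share (-0.01 and -0.03), macrophage markers (0.03 and -0.01) and immediate early genes (0.04 and -0.02). Cells of 1 library share its preparation, and these coefficients are descriptions.

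Pairs of single genes set the groups apart only in part. Among the 91 pairs of type I effectors the median coefficient was 0.09 in WT and 0.13 in the transgenic library, and the highest was Ifit3 with Rsad2 at 0.59 and 0.68. Pairs of a type I effector with a GTPase had similar medians, 0.103 and 0.0995. Among the 21 pairs of GTPases the medians were higher, 0.19 and 0.25. Ifit3 and Ifit3b, with a coefficient of 0.53 in WT and 0.42 in the transgenic library, share 14.9% of the 50-base words of the Ifit3 3′ end. B2m with H2-K1 reached 0.42 and 0.52. Across the groups, Ifit1 with Irgm1 reached 0.41 in WT and Ifit1 with Gbp5 0.52 in the transgenic library. The transcription factors had low coefficients with each other, with medians of 0.04 and 0.03 over 6 pairs.

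**Figure D5:**
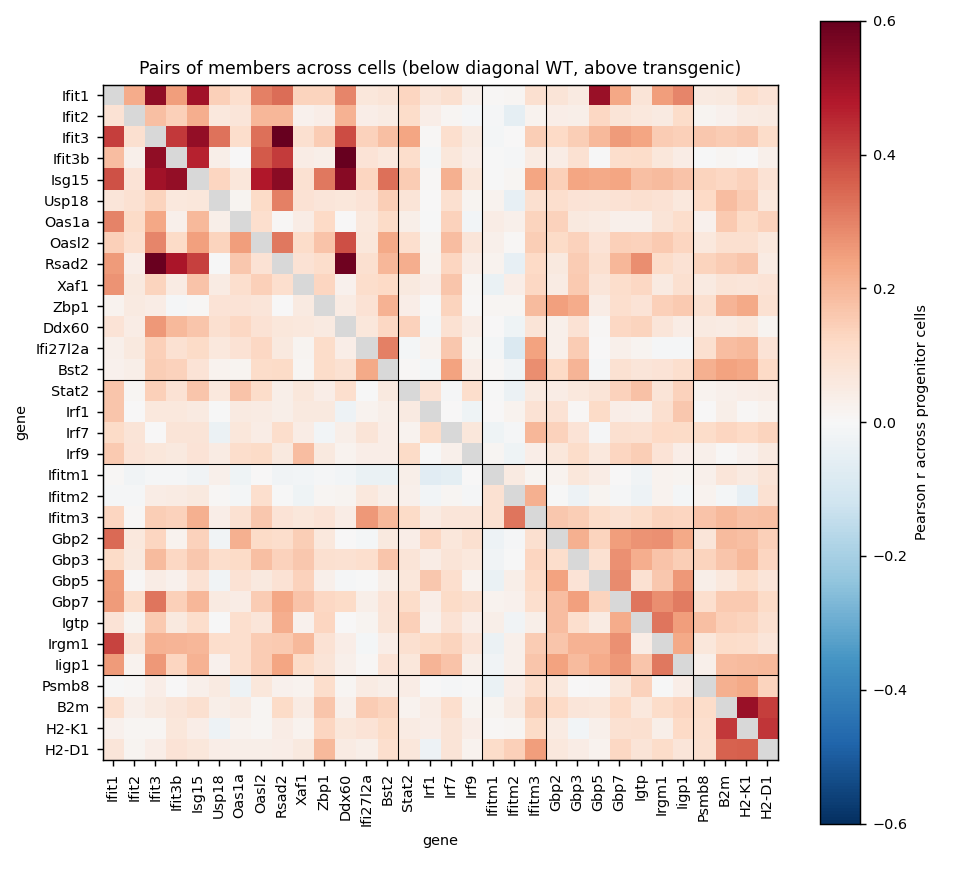
Pearson coefficient of each pair of the 32 genes across progenitor cells thinned to 5000 UMIs, with WT below the diagonal and transgenic above it; lines separate the role groups. Pairs among Ifit3, Ifit3b, Isg15 and Rsad2 are among the darkest, with Ddx60 joining them above the diagonal, and B2m, H2-K1 and H2-D1 form a separate block.

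In endothelial cells the core averaged 4.11 and 3.23 UMIs per thinned cell (82 WT and 69 transgenic cells), with a UMI in 84.1% and 76.8% of cells. The core and the GTPases correlated at 0.38 and 0.55 across these cells, and Irf1 with the GTPases at 0.50 and 0.43.

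The rest of the pathway was followed in a list of 82 further genes, of which 80 were matched. The 9 interferon ligand genes all stayed under 10 UPM in both classes and libraries: Ifnb1, Ifna1, Ifna2 and Ifna4 were at 0 UMIs in progenitors and endothelial cells, and Ifng stood at 0.161 and 0.0791 UPM in progenitors. All 8 receptor and kinase genes were at the floor in progenitors and none differed by 1.5-fold between the libraries. Ifngr1, a chain of the interferon gamma receptor, stood at 137 and 158 UPM, and Jak2 at 231 and 166. Among other targets, Rtp4 (31.3 and 20.4 UPM) and Gbp8 (11.4 and 7.59) were lower and the chemokine gene Cxcl9 (30.6 UPM in transgenic cells) higher by 1.5-fold in transgenic progenitors. In all, 1 of 55 pathway genes at the floor was higher and 2 lower, against 2.74% and 1.81% of all genes.

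In endothelial cells, other class I genes were also lower in the transgenic library. H2-Q7 stood at 319 UPM in WT and 153 in transgenic cells, Tap1, the peptide transporter, at 81.4 and 37.9, and Psmb9 at 142 and 74.3. Of 15 such genes 7 were lower by 1.5-fold and 0 higher. Over the whole list 22 of 66 genes were lower and 7 higher, against 17.9% and 16.6% of all genes. Compared with progenitors of the same library, the further targets Gbp4 (4.23 UPM in WT progenitors and 211 in WT endothelial cells), Ifi44 (2.01 and 89.3) and Tgtp2 (3.98 and 102) were higher. Of the other class I genes, 11 of 15 were higher by 2-fold in the WT library and 0 lower, against 24.9% and 16.8% of all genes. In the transgenic library 6 were higher and 2 lower, against 23.4% and 18.5%.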

How the data were processed

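The deposited counts were UMIs per gene and droplet, unfiltered, made with Cell Ranger 7.0.0 on mm10 per the submitters' processing notes (the file headers name software version 4). Cells had at least 1000 UMIs, 500 genes and at most 10% mitochondrial UMIs. Scrublet marked 1 WT and 4 transgenic droplets, too few for the caller to have worked, and they were removed, so doublets may remain. Clusters (scanpy 1.11.5, leidenalg 0.10.2, with 2000 variable genes, 30 components, 15 neighbours, resolution 0.5, seed 1) left out the 32 members and the pathway list, and were named from marker lists. UMIs were summed per class and library. Levels carry exact Poisson intervals, ratios exact conditional binomial intervals and shares Clopper-Pearson intervals. Calls needed 10 UPM in a library and 1.5-fold, or 2-fold between classes. A count of 0 was bounded by 3 UMIs. On simulated Poisson counts of 8501 genes, 200 of them changed, 95.6% of progenitor intervals held the true ratio. The simulation used the counting model behind the intervals. It left out the uneven spread over cells and cannot check the intervals for that. All 32 members are accounted for. Of the pathway list, up to 4 genes per subgroup with the largest ratio were to be named, and of the genes that vary with the core the 10 highest; other pathway genes named were chosen after their values were seen. Members and lists were chosen with earlier results of these data known. Mx1 and Mx2 are not used here. Alternatives were other cell filters, weights, depths, floors and clusterings.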

Additional observations from a re-analysis of the deposited data

Results flagged for a closer look

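Between the libraries the type I core differed in opposite directions in different progenitor clusters. The log2 ratio of transgenic over WT was 1.26 in Dpp4-like cells, -0.39 in Il6-like cells and -0.95 in Icam1-like cells (clusters 1 and 7 together). In Dpp4-like cells it was 0.46 without the 5 highest cells of each cluster and 0.53 with interferon genes kept in the clustering. The sum of the 7 GTPases had the same signs, with 0.70 in Dpp4-like cells, -0.49 in Il6-like cells and -0.35 in Icam1-like cells, but with interferon genes kept in the clustering the ratio in Icam1-like cells was 0.28. In cluster 7 alone the core stood at 244 UPM in WT and 253 in transgenic cells, and the GTPases at 268 and 353. With 1 library per genotype the difference between clusters was not tested. Macrophage markers summed to 1.76 and 1.14 UPM in WT and transgenic Dpp4-like cells.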

How the results depend on the processing

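No paired analysis was possible because each genotype had 1 library and no replicate numbers. Settings named as added were chosen after seeing the data, and where a value moved the cause was not tested. In progenitors (transgenic over WT), the count of 1 higher member became 0 without the 5 cells with most UMIs of a gene, with each library clustered on its own, at a floor of 50 UPM (3 lower, type I median -0.51), and in the added settings without the 5 cells highest in the core and without the Dpp4-like cluster (9 lower; medians -0.42 for type I, -0.51 for GTPases and -0.33 for class I). Equal cluster weights left 1 lower member and a GTPase median of -0.19, thinning to 5000 UMIs gave a GTPase median of -0.44, and a mean over cells gave a class I median of -0.33. In endothelial cells, a mean over cells gave 1 higher, 16 lower and -0.76 for Zbp1, thinning gave -0.75 for Zbp1, leaving out the 5 top cells of a gene gave 1 higher, 16 lower and a GTPase median of -0.72, and a floor of 50 UPM gave 0 higher. For endothelial cells over progenitors, leaving out the 5 top cells gave a GTPase median of 0.79 and 4 lower in WT, and 0.44, 10 higher, 4 lower and -0.21 for Ifit3 in the transgenic library, where thinning gave 1 lower. For the clusters at resolution 0.3, the Icam1-like name fell only to the 42 WT and 17 transgenic cells of a small cluster, so that their core ratio of 0.048 and GTPase ratio of 0.40 do not bear on cluster 1, and the GTPases of Il6-like cells over other progenitors were 1.59 in WT and 1.00 in the transgenic library. At resolution 1.0 the Il6-like values were 1.21 for the WT core and 1.72 and 1.00 for the GTPases. With interferon genes in the clustering they were 1.36 and 1.24 for the core and 1.88 and 1.30 for the GTPases, and the ratios between libraries were 0.53 (core) and 0.49 (GTPases) in Dpp4-like and 0.28 (GTPases) in Icam1-like cells. In the added setting without the 5 highest cells per cluster, the Il6-like core stood at 1.02 and 0.44, its GTPases at 1.80 and 1.03, and the Dpp4-like core ratio at 0.46. The top 5% of cells held 41.3% of WT core UMIs at 10000 UMIs per cell, 49.8% of transgenic core and 39.7% of WT GTPase UMIs at 2500, and 23.2% and 28.3% of the UMIs of all 14 effectors. Endothelial values rest on few cells, and low members there are limited by depth.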

Other observations

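Outside the members and the pathway list, the genes that varied most with the type I core across progenitor cells were Herc6 (Pearson r 0.35 in WT and 0.43 in the transgenic library), Gm4951 (0.31 and 0.36), Trim30a (0.32 and 0.30), 9930111J21Rik2 (0.26 and 0.32), Phf11d (0.26 and 0.28), Slfn8 (0.32 and 0.25), Slfn9 (0.24 and 0.21), Olfr56 (0.20 and 0.22), Samd9l (0.23 and 0.20) and Plac8 (0.17 and 0.38). Herc6 belongs to the family of HERC ubiquitin ligases, and the Slfn genes are schlafens. The coefficients were taken over 1052 WT and 1245 transgenic cells, and each gene's 2 values stand for cells that share a library. Of 10178 genes, 0.727% had a lower of the 2 values above 0.1, and the median was -0.02. The span of Olfr56 overlaps that of 9930111J21Rik2, so their counts may not be independent. In the pathway list Cmpk2, the neighbour of Rsad2, reached 0.22 in WT and 0.69 in the transgenic library, and Rnf213 0.47 and 0.31.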
